A study of Mus musculus with 84 samples.

Results

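The regions described here are 6940 stretches of chromatin that the authors' peak list held as accessible at day 7 of reprogramming and that had not been in their lists of days 1, 3 or 5. They were chosen by peak position alone: a day 7 peak of the control arm was taken when it shared no base with any earlier control peak, which left 6940 of 51694 day 7 peaks (13.4%). The cells were mouse embryonic fibroblasts (MEFs) that received Oct4, Sox2 and Klf4 by retrovirus, together with a retrovirus for a short hairpin against luciferase (shLuc, the control), Ythdf2 (shYthdf2) or Ythdf3 (shYthdf3). YTHDF2 and YTHDF3 are readers of N6-methyladenosine in RNA, and puromycin selected the hairpin-bearing cells until day 1. All 3 arms carried the delivered factors and were cultured in iCD1 medium. Accessibility was measured by ATAC-seq, in which a transposase cuts open chromatin, in 1 library per arm and day, so no difference between peak lists can be tested. RNA was measured in 2 libraries per arm and day, and in 2 libraries each of shLuc MEFs at passage 2, induced pluripotent stem (iPS) cells at passages 5-8 and embryonic stem (ES) cells at passages 20-25, the last of a CBA/CaJ X C57BL/6J strain.

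When fibroblasts are reprogrammed, the delivered factors are known to bind and open new regions while fibroblast enhancers close. Regions that open late include those near genes of the stem cell network, whereas epithelial genes usually respond earlier. An enhancer is a region away from a gene start that can raise a gene's transcription, and a promoter is the region at the start itself. A peak list says where cutting passed the authors' threshold and gives no height, so a region outside a list is not shown to be closed.

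Among the regions at gene starts, 8 are shown because their genes are stem cell or epithelial genes, a delivered factor, or genes whose RNA was among the more changed of those with a region at the promoter. They were picked after the RNA values were seen. Each is the part of the region within 250 bases before a RefSeq start of the gene (build GRCm38.p6), written 5′ to 3′ on the gene's strand. Capitals mark a match to a motif: the core of the CTCF motif, GGGNGTG for KLF factors, TTGCNNAA for CEBP factors and GCCNNNGGC for TFAP2, each searched on both strands.

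Epcam, chr17:87635731-87635913, plus strand: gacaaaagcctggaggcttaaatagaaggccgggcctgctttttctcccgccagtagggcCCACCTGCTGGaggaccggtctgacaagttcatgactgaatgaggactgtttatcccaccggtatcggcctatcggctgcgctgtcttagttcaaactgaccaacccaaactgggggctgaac
L1td1, chr4:98726619-98726753, plus strand: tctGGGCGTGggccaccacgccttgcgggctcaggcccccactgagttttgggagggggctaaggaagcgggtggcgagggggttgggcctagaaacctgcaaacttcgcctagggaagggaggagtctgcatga
Tet1, chr10:62887406-62887531, minus strand: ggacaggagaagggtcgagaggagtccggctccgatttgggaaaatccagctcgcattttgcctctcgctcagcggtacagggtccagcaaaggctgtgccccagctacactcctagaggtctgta
Sox2, chr3:34649841-34649974, plus strand: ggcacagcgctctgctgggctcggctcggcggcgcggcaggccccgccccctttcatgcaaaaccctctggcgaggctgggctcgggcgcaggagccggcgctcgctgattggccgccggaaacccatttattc
Dmgdh, chr13:93674403-93674435, plus strand: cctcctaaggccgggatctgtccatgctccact
Apba2, chr7:64502060-64502137, plus strand: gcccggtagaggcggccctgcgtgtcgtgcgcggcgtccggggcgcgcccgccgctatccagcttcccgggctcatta
Celf3, chr3:94478057-94478276, plus strand: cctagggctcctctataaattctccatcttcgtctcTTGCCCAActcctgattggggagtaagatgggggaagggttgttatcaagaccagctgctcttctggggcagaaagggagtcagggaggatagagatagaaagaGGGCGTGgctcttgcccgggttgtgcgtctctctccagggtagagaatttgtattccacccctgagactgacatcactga
Lmo4, chr3:144202333-144202582, minus strand: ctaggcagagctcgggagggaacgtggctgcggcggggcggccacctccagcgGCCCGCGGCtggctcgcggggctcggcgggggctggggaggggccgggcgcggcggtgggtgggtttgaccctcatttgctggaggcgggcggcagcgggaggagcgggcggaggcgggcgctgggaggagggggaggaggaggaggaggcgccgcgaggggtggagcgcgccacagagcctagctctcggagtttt

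The Epcam stretch ended 66 bases before the start of the gene and held a match to the CTCF core. The L1td1, Dmgdh, Apba2 and Lmo4 regions ran across the start used, so their stretches end at the base before it. For Tet1, Apba2, Celf3 and Lmo4 the start used lay inside the annotated gene and not at its outer end. No motif searched was found in the Tet1, Sox2, Dmgdh and Apba2 stretches, which says only that those letters are not in these windows. The Celf3 stretch held a KLF and a CEBP match, the L1td1 stretch a KLF match and the Lmo4 stretch a TFAP2 match.

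The regions were short. Their median width was 132 bases (interquartile range 112 to 170, longest 630), against 237 bases (157 to 378) for the other 44754 day 7 control peaks. Peaks in all 4 control lists had a median of 311 bases, those of days 3, 5 and 7 a median of 208, and those of days 5 and 7 a median of 165. The day 7 control list also went down to shorter peaks than the earlier ones, with a shortest peak of 99 bases against 115 to 118 at days 1, 3 and 5. Of the regions, 1973 (28.4%) were under 115 bases, shorter than any peak of the earlier control lists, as were 7.14% of the other day 7 peaks. The part of this difference in list thresholds in the choice of regions was not tested.

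**Figure D1:**
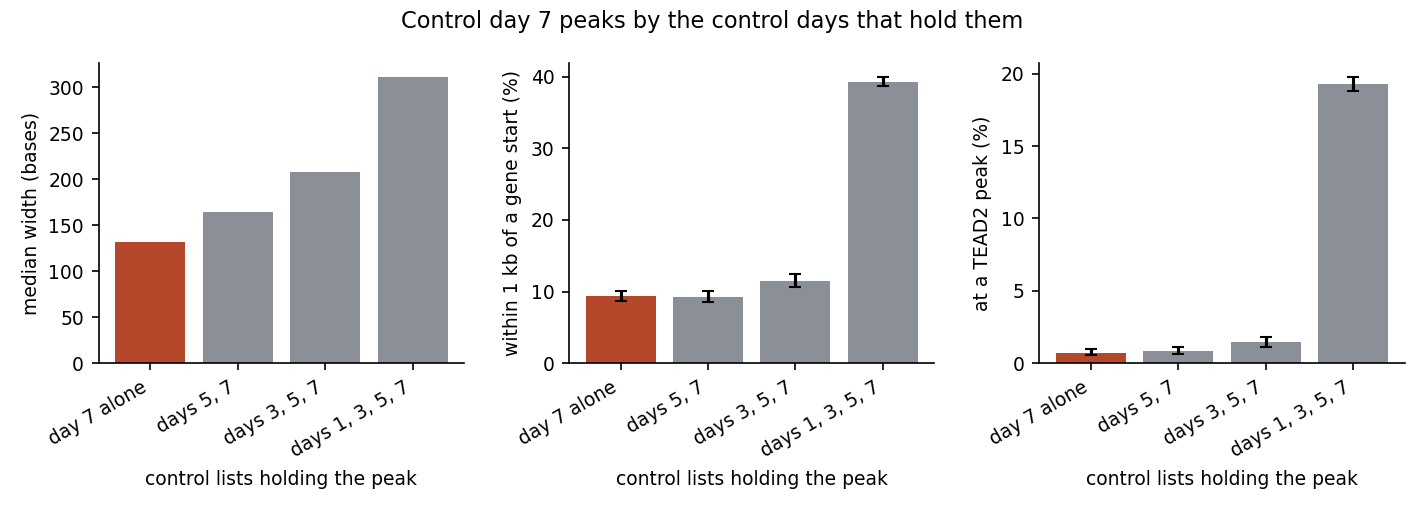
Median width in bases (left), percent of peaks within 1 kb of a RefSeq gene start (middle) and percent sharing a base with a TEAD2 peak of day 1 (right), for day 7 control peaks split by which control lists held them. Error bars are 95% exact binomial intervals for counting error. Peaks at day 7 alone were the narrowest class, and 9.42% of them lay within 1 kb of a start against 39.3% of peaks present on all 4 days.

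At the edge of the rule few peaks were involved. Of the regions, 85 had an earlier control peak within 50 bases, and 273 other day 7 peaks shared 50 bases or fewer with an earlier one. Those just inside had a median width of 150 bases and 49.4% were in the shYthdf2 day 7 list, against 126 bases and 61.5% of those just outside. The median gap from a region to the nearest earlier control peak was 4815 bases. The other control days had regions of their own in the same sense: 17744 of 60953 day 1 peaks (29.1%), 3410 of 45613 day 3 peaks (7.48%) and 8642 of 59861 day 5 peaks (14.4%) were in no other control list.

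The knockdown arms were not used by the rule. Of the 6940 regions, 3816 shared a base with a shYthdf2 day 7 peak (55.0%, 95% exact binomial interval 53.8 to 56.2), against 93.6% of the other day 7 control peaks. The shYthdf3 day 7 list held 1704 of the regions (24.6%, interval 23.5 to 25.6), against 79.9% of the other peaks. With every list limited to peaks of at least 300 bases, the rule gave a different set of 1372 regions, with 12.4% in shYthdf3. Shorter earlier control peaks and shorter knockdown peaks then no longer counted. Of the 6940 regions, 177 were that wide, so most of the 1372 were not among them. Both full day 7 lists held 1336 of the 6940 regions (19.3%), and neither held 2756 (39.7%, against 4.65% of other peaks). The share of the regions was below that of other day 7 peaks in either arm. These intervals cover counting error in 1 library, not the spread between libraries. Peaks of days 5 and 7, the class closest in time, were at 83.5% in shYthdf2, 55.0% in shYthdf3 and 12.5% in neither. The rule kept peaks of 1 control list, while each other peak was in at least 1 earlier control list too. The part of the rule in the lower shares was not tested. The shYthdf2 list was the longer of the pair, with 75558 peaks against 52389, and the part of list length in the difference between arms was not tested.

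**Figure D2:**
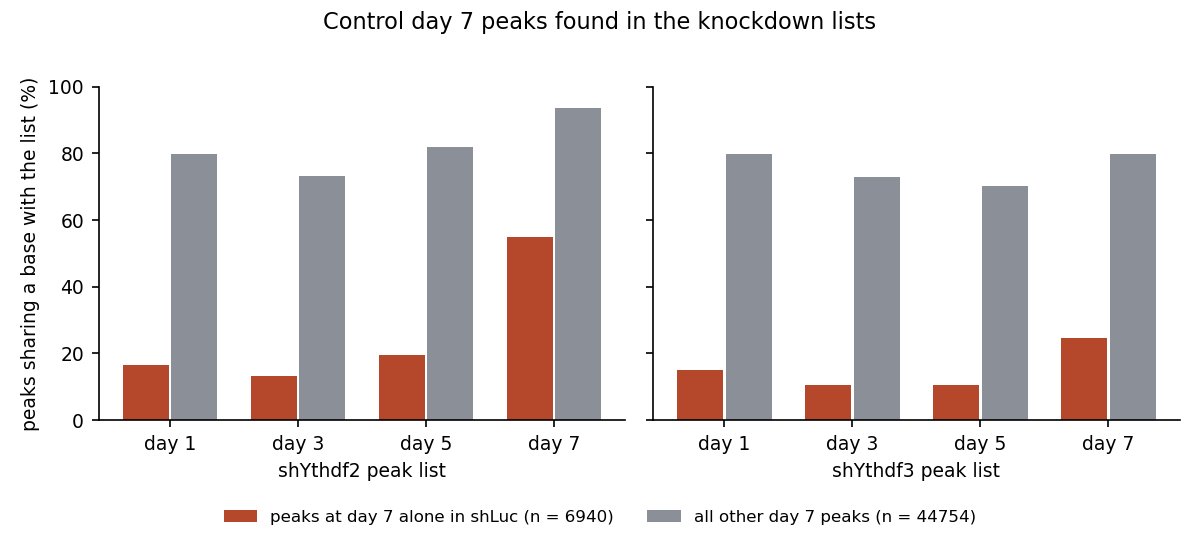
Percent of control day 7 peaks that share at least 1 base with a peak of each knockdown list, for regions at day 7 alone in shLuc and for all other day 7 control peaks, 1 library per list. Regions at day 7 alone were below the other peaks in all 8 lists, and among the knockdown lists they were most often in those of day 7, at 55.0% for shYthdf2 and 24.6% for shYthdf3.

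Although absent from the earlier control lists, many regions were in earlier lists of the other arms. At least 1 knockdown list of days 1, 3 or 5 held 3018 of them (43.5%, interval 42.3 to 44.7). This was against 94.8% of the other day 7 peaks and 73.8% of peaks of days 5 and 7. By list, shYthdf2 held 1141 at day 1, 910 at day 3 and 1355 at day 5, and shYthdf3 held 1047, 731 and 722. Opening at day 7 therefore describes the control lists and not the 3 arms together. The strictest group, in both knockdown lists of day 7 and in no earlier list of any arm, had 380 regions (5.48%). In their own arms, 17270 shYthdf2 peaks and 8400 shYthdf3 peaks were at day 7 alone. The first set included 2039 of the control regions (29.4% of them), and 11.8% of the shYthdf2 set met a control region. For shYthdf3 the figures were 899 regions (13.0%) and 10.7% of its own set.

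The lower shares were also present within classes of peak width. Among peaks under 120 bases, 46.8% of the regions and 78.3% of other day 7 peaks were in the shYthdf2 day 7 list, and 20.2% and 50.0% in the shYthdf3 list. Among peaks of 300 bases or more, the shares were 80.2% of 177 regions and 99.4% of other peaks for shYthdf2, and 37.3% and 95.2% for shYthdf3. That class has no upper limit, and its longest region had 630 bases against 1854 for the other peaks. In each of the 5 width classes the regions were below the other peaks in both lists.

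**Figure D3:**
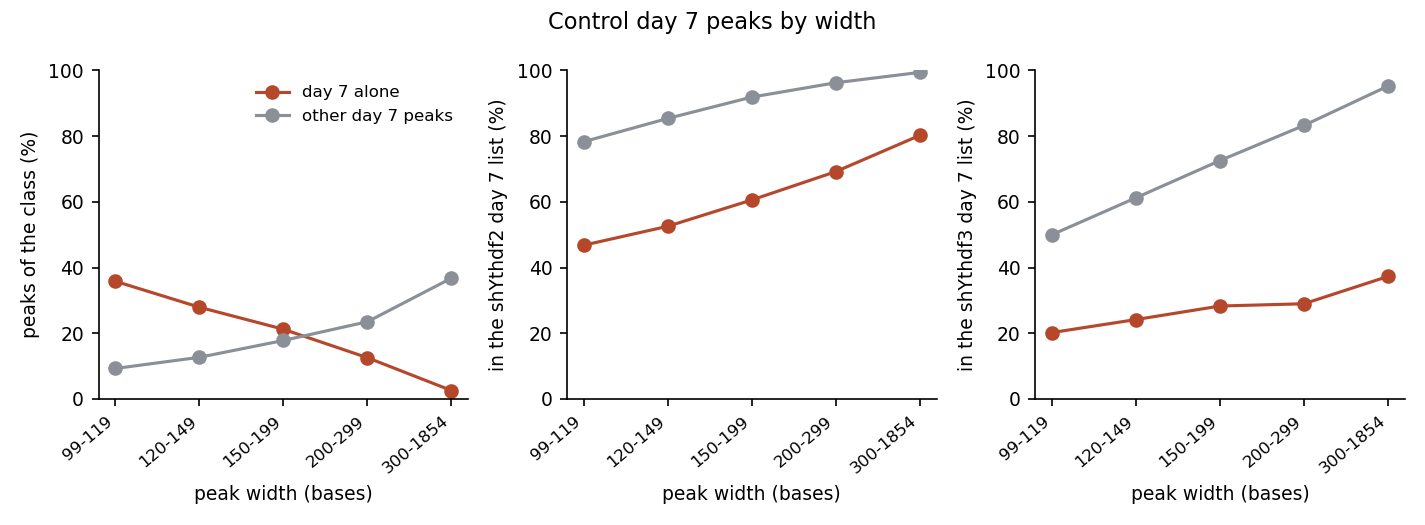
Percent of each class of control day 7 peaks by width in bases (left), and percent of each width class found in the shYthdf2 (middle) and shYthdf3 (right) day 7 lists. Both shares were higher in wider classes. The regions at day 7 alone lay below the other peaks in each width class, for example at 46.8% against 78.3% under 120 bases for shYthdf2.

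The regions lay mostly away from gene starts. Of 6711 placed regions, 632 (9.42%, interval 8.73 to 10.1) were within 1 kb of a RefSeq gene start, against 28.7% of other day 7 peaks. The share was 9.27% for peaks of days 5 and 7 and 39.3% for peaks present on all 4 days, so in this respect the regions resembled the other late peaks. The median distance to a start was 18517 bases, against 12246 for the other peaks. A gene body held 64.6% of the regions and 72.9% of the other peaks. Regions on chromosome 18 have no start in the table used and were left out of these shares of distance. By chromosome, the regions made up 10.9% (chromosome 19) to 14.6% (chromosome 4) of day 7 peaks.

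TEAD2, a DNA-binding partner of YAP, was mapped by ChIP-seq in 1 day 1 library, with 7805 peaks. Of the regions, 50 shared a base with a TEAD2 peak (0.720%, interval 0.535 to 0.949), against 12.6% of other day 7 peaks. Width mattered for this contrast: under 120 bases the shares were 0.805% and 2.99%, and at 300 bases or more 0% and 24.3%. The low share follows in part from the rule, which removed day 1 peaks, since 86.0% of TEAD2 peaks were at day 1 control peaks. Peaks of days 5 and 7, likewise absent at day 1, had 0.866%, and those of days 3, 5 and 7 had 1.46%.

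Some regions sat together. Chains of 3 or more regions, each within 20 kb of the next, numbered 134 and held 428 regions. The longest had 5, at chr17:29039483-29069557 by Srsf3, a splicing factor gene, and at chr3:89238677-89282200, where Efna1, an ephrin ligand gene, and Trim46 lie. Socs3, an inhibitor of LIF and STAT3 signalling, had 4 regions around it at chr11:117936287-117979713, and none of them was in both knockdown lists. A chain of 4 at chr16:35581444-35588903 in Sema5b, a semaphorin gene, had 3 in both.

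Promoters with a region were less CpG-rich than those with other day 7 peaks. In 300-base windows from 250 bases before to 50 after a RefSeq start, 271 windows of 255 genes shared a base with a region. Their median GC content was 57.3% with 9 CpG sites, against 62.3% and 22 in 12501 windows with another day 7 peak, and 52.7% and 7 over all 32851 windows. The KLF letters were in 34.3% of the windows with a region (interval 28.7 to 40.3), in 37.2% of windows with another peak and in 29.2% of all windows. The ETS letters CCGGAAG were in 8.12% (5.16 to 12.0), against 18.5% with another peak and 8.86% of all windows. The TEAD letters GGAATGT were in 5.54% (3.13 to 8.97), against 2.58% and 3.85%. The TEAD share was 1.49% in the 67 windows with 150 or more bases in a region. The OCT-SOX composite TTGTNATGC was in 2 windows with a region. No genome was used, so motifs in regions away from starts were not analysed here.

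The RNA of nearby genes was a readout that the rule did not use. A gene counted as near when a region lay in it or within 10 kb of it, which gave 5576 genes in the table, and 4119 of them passed the filter of 1 TPM (a relative RNA level corrected for transcript length) in at least 2 libraries. Between day 1 and day 7 of the control arm, 314 of these rose (7.62%) and 148 fell (3.59%) at an adjusted p under 0.05 (limma, Benjamini-Hochberg over 21303 genes). Over all genes tested, 3.92% rose and 2.90% fell. The median log2 change was 0.14 near regions and 0.01 over all genes. It was 0 and 0 without day 7 replicate 1, and 0.27 and 0.15 without day 7 replicate 2. Without day 1 replicate 1 it was 0.21 near regions and 0.11 over all genes, and without day 1 replicate 2 it was 0.10 and 0. With replicate number as a block, 464 nearby genes rose and 262 fell, where 6.06% and 4.97% of all genes did. Leaving out any single day 1 or day 7 library lowered the 462 calls. Calls over all genes in those fits were not compared, so this drop tells nothing particular of genes near regions.

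Genes with a region had shares close to those of genes with other late peaks. Of 3582 tested genes near a peak of days 5 and 7, 7.82% rose and 3.18% fell. A gene near both kinds of peak counted in both sets, so the sets were not separate, and their difference was not tested. Of 11810 genes near some other day 7 peak and no region, 3.68% rose and 3.56% fell. Genes near regions were longer, with a median of 35.5 kb against 17.6 kb for that last set, and a long gene meets more regions. Genes with 2 or more regions numbered 1007 with a median length of 95.3 kb, and 10.4% rose and 2.98% fell. Of 384 genes with a region within 1 kb of the start, 39 rose (10.2%) and 10 fell (2.60%), with a median log2 change of 0.32. Where all regions of a gene were in the shYthdf2 day 7 list, 6.70% rose, and where none was, 7.31% rose. The difference between those sets was not tested.

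**Figure D4:**
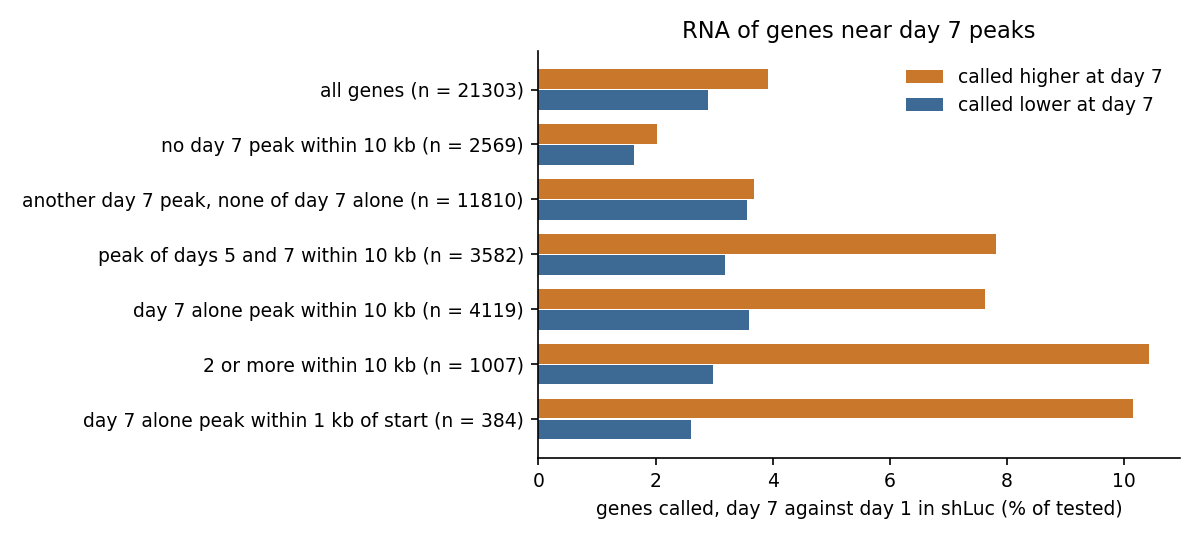
Percent of tested genes called higher or lower at day 7 against day 1 in shLuc (limma, adjusted p under 0.05), for all genes and for sets defined by the peaks near them, with the number tested. Genes near a region at day 7 alone had 7.62% higher and 3.59% lower, above the 3.92% and 2.90% of all genes. Genes near a peak of days 5 and 7 had 7.82% and 3.18%, and a gene near both counted in both sets.

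Changes in the last interval were few. Between day 5, the last day without these peaks, and day 7, 5 of the 4119 nearby genes rose and 2 fell, where 0.0704% and 0.0235% of all genes did. With the replicate block the counts were 6 and 6, where 0.113% and 0.0986% of all genes were called. The calls were fragile: fewer nearby genes were called on leaving out any single library of day 5 or day 7. Calls over all genes in those fits were not compared. The median log2 change was 0.13 near regions and 0.08 over all genes without day 7 replicate 2. It was 0.11 and 0.09 without day 5 replicate 1, and -0.08 in both without day 5 replicate 2.

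Igfbp2, which encodes a binding protein for insulin-like growth factors, rose from day 5 to day 7. It was at 17.4 and 23.8 TPM at day 1, 2.83 and 7.08 at day 3, 30.6 and 29.3 at day 5, and 294.6 and 322.1 at day 7. Both day 7 libraries were above the other 6, and the change from day 5 was 3.32 ± 0.42 (SE) in log2(TPM + 1), adjusted p 0.00606 by limma. Its region, chr1:72833523-72833811, lay inside the gene 8136 bases from the start and was also in the shYthdf2 day 7 list. Slc2a1, the glucose transporter GLUT1, rose from 64.3 and 59.6 TPM to 198.8 and 220.9, and Ldha, lactate dehydrogenase A, from 378.4 and 349.0 to 981.0 and 856.5. Their regions were in neither knockdown list, outside the gene in both cases. The day 7 levels of these 3 genes were lower in shYthdf3: 35.8 and 34.0 TPM for Igfbp2 (log2 difference -3.11, adjusted p 0.00465 by limma), 71.9 and 87.8 for Slc2a1 (-1.39, adjusted p 0.0146) and 408.8 and 323.6 for Ldha (-1.33, adjusted p 0.00502). In the same libraries mitochondrial transcripts took 6.95 and 14.9% of TPM in shYthdf3 and 5.90 and 8.00% in shLuc, and their part in these differences was not tested. Igfbp2, Slc2a1 and Ldha were picked for rises to the day 7 control libraries, which are also the reference for shYthdf3. The comparison between arms is therefore not independent of that choice. Elobl, also called higher from day 5, was listed at 0 TPM in the control libraries of days 1, 3 and 5 and in both knockdown arms at day 7, and at 3.03 and 7.29 TPM in the control at day 7. Its call was lost at a pseudocount of 0.1 (adjusted p 0.0571 by limma). Gbp2 and Gbp2b, interferon-induced GTPase genes that share 1 region, fell from day 5 to day 7. Gbp2 went from 964.1 and 767.3 TPM to 179.1 and 92.4 (-2.73, adjusted p 0.033 by limma), still above its 4.55 and 2.16 at day 1. Both calls were lost at a pseudocount of 0.1 (adjusted p 0.0582 for Gbp2 and 0.193 for Gbp2b by limma) and on leaving out any library of either day.

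The genes of the stem cell network were a list of 37, of which 11 had a region within 10 kb (29.7%, beside 15.2% of all placed genes). Of the 10 that were tested in the time course, 7 rose from day 1 to day 7 and none fell, and of the 33 listed genes tested, 18 rose. The other 3 with a region were Fgf4, Tet1 and Mycn, and by the same limma fit their adjusted p was 0.83, 0.805 and 0.204. All 11 were higher in ES cells than in MEFs, as were all 37 genes of the list. Of placed genes that were tested in the time course, 4119 of 18498 had a region. Apart from the delivered factors, the lists ran from 0% (keratinocyte markers) to 60% (neural markers) with a region. Matrix genes were at 41.7% and mesenchymal regulators at 37.5%, so a share above that of all placed genes was not particular to the stem cell network. The difference between lists was not tested.

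Nanog, a transcription factor at the core of the network, was at 0.96 and 0 TPM at day 1, 0.91 and 0 at day 3, 3.06 and 5.61 at day 5, and 16.0 and 32.4 at day 7. The day 7 libraries did not overlap the earlier ones and were far below the 521.9 and 505.6 of ES cells. The rise from day 1 was 4.09 ± 0.70 in log2(TPM + 1), adjusted p 0.0016 by limma. Its region, chr6:122715893-122716040, lay outside the gene, 8328 bases downstream of the start, and among the knockdown lists it was in shYthdf2 day 7 alone. In bulk libraries such as these, fewer cells of a type and less RNA per cell cannot be told apart.

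Sall4, a zinc finger factor of the same network, was at 0 in both day 1 libraries, 6.07 and 2.83 TPM at day 3, 7.67 and 9.26 at day 5, and 18.4 and 15.2 at day 7 (4.15 ± 0.69, adjusted p 0.00123 by limma). It had a pair of regions, and chr2:168767175-168767371 was in both knockdown lists of day 7 and lay 142 bases from an earlier control peak. L1td1, an RNA-binding protein gene of stem cells, had its region across the start. Its level was 36.04 and 27.54 TPM at day 1, 102.6 and 40.4 at day 3, 102.7 and 96.2 at day 5, and 127.4 and 106.8 at day 7 (1.86 ± 0.44, adjusted p 0.0171 by limma). Leaving out any single library of the 2 days raised the adjusted p of L1td1 to between 0.0574 and 0.132.

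Alpl, the alkaline phosphatase used as an early mark of reprogramming, had a region 560 bases downstream of its start, chr4:137765672-137765915, and another within the gene. It was at 1.24 and 1.29 TPM at day 1 and already at 22.1 and 93.5 at day 3, and ended at 55.3 and 107.5 (5.11 ± 0.62, adjusted p 7.24e-05 by limma). Both day 3 libraries were thus above day 1, before the control lists held its regions. Nr5a2, a nuclear receptor, reached 5.28 and 6.42 TPM from 0.

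At some genes a region was present while the RNA was low. Tcl1, a cofactor of AKT kinases, was listed at 0 TPM in all 8 control time course libraries and at 88.8 and 84.4 in ES cells. Its region, chr12:105224841-105224996, was 2104 bases upstream of the start and 112047 bases from any earlier control peak. Fgf4, a growth factor gene that OCT4 and SOX2 activate in stem cells, had regions 98 bases downstream of its start, chr7:144861484-144861635, and 9734 bases upstream, neither in a knockdown list. Its RNA was at 1.63 and 1.19 TPM at day 7, within the range of the earlier days, and at 68.4 and 68.5 in ES cells. Tet1, which oxidises methylated cytosine, had a region 82 bases before a RefSeq start inside the gene. Its RNA was at 14.1 and 1.68 TPM at day 7, libraries that overlapped those of day 1 at 3.77 and 0.36. That region lay 136 bases from an earlier control peak, so accessible chromatin was listed close by before day 7.

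The delivered factors each had a region as well. The Sox2 promoter region was in the shYthdf3 day 7 list alone, Klf4 had one 456 bases upstream of its start, chr4:55532931-55533038, and Pou5f1 one 3037 bases upstream, chr17:35502896-35502995. Their RNA includes the retroviral copies: Sox2 was at 1020 and 869.1 TPM at day 7, above the 204.7 and 220.5 of ES cells, so it says nothing of the endogenous genes. None of the 3 was called between days 1 and 7 (adjusted p 0.122 for Pou5f1, 0.481 for Sox2 and 0.999 for Klf4 by limma), though with the replicate block Pou5f1 was called lower (adjusted p 0.00298, log2 change -1.07). The Sox2 promoter, Klf4 and Pou5f1 regions lay 457, 104 and 756 bases from an earlier control peak.

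Of 28 epithelial genes, 13 had a region within 10 kb (46.4%, beside 15.2% of all placed genes and 41.7% of matrix genes). Of these 13, 7 rose from day 1 to day 7 and none fell, and 14 of the 27 listed genes tested rose. In limma the replicate block added Krt18 (adjusted p 0.0382) and Ap1m2 (adjusted p 0.0372). All 13 were higher in ES cells than in MEFs, as were 26 of the 27 listed genes tested there. A change from mesenchymal to epithelial form is a known early step of reprogramming.

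Epcam, an epithelial adhesion molecule, was at 1.51 and 5.46 TPM at day 1, 24.8 and 18.6 at day 3, 100.4 and 63.3 at day 5, and 184.4 and 153.9 at day 7. Each day was above the one before with no overlap, and the change from day 1 was 5.40 ± 0.47, adjusted p 2.77e-06 by limma. The promoter region shown above was in no knockdown list, where Epcam RNA at day 7 was 131.0 and 101.7 TPM in shYthdf2 and 134.8 and 72.2 in shYthdf3. Neither arm was called different from control (adjusted p 1.0 and 0.735 by limma). Krt8, a keratin, rose from 4.28 and 1.25 TPM to 93.7 and 94.9 (4.79 ± 0.67, adjusted p 0.000269 by limma), with a region 1117 bases upstream, chr15:102005459-102005584. Lsr, a receptor of tricellular junctions, rose from 2.80 and 4.83 to 46.5 and 56.1 (3.47 ± 0.45), and its region, chr7:30956850-30957003, was in both knockdown lists of day 7. That region lay 204 bases from an earlier control peak. St14, a membrane protease, had 3 regions and rose from 1.70 and 4.81 to 31.2 and 35.5. Cdh1 (E-cadherin), Cldn7 and Tjp3 also rose. The call for Cldn7 was lost under a pseudocount of 0.1 (adjusted p 0.0758 by limma), with no filter on low values (0.054) and on leaving out any of the 4 libraries (0.0926 to 0.192).

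**Figure D5:**
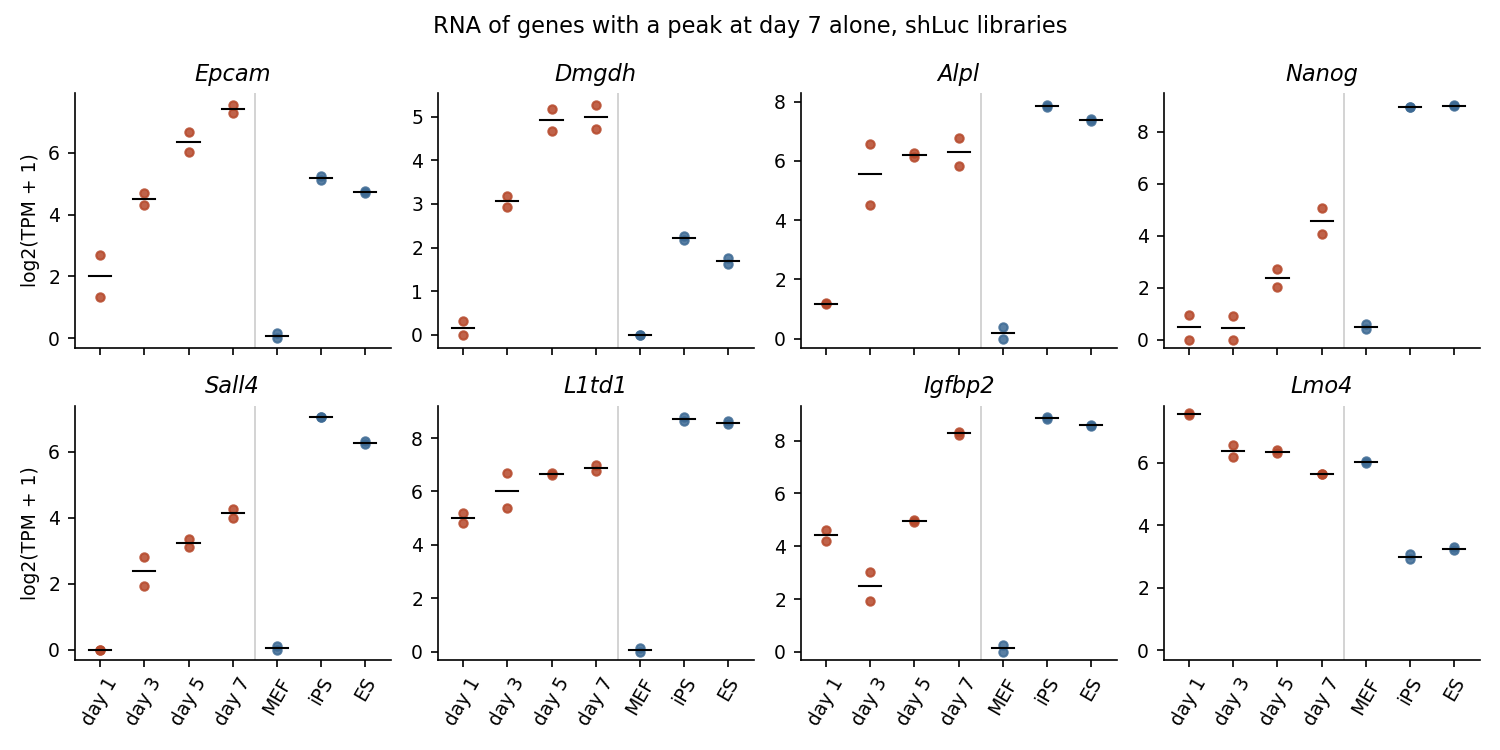
RNA level as log2(TPM + 1) in each shLuc library (points) with the group mean (bar), for 8 genes with a region at day 7 alone, across days 1, 3, 5 and 7 (left of the line) and in MEFs, iPS cells and ES cells (right). Epcam and Dmgdh ended above their ES cell levels, Nanog and Sall4 far below them, and Lmo4 fell across the days.

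At promoters, 215 genes had 60 or more bases of a region in the 300-base window, and 126 of these were tested. Of these, 21 rose (16.7%) and 2 fell (1.59%), beside 3.92% and 2.90% of all genes. A single region, chr13:93674403-93674547, ran across the start of Dmgdh and lay in the promoter window of Bhmt2, the divergent gene beside it. It was in both knockdown lists of day 7 and in no earlier list. Dmgdh encodes dimethylglycine dehydrogenase, and Bhmt2 a methyltransferase that remethylates homocysteine. Dmgdh was at 0.25 and 0 TPM at day 1, 8.08 and 6.66 at day 3, 24.6 and 35.2 at day 5, and 25.4 and 37.7 at day 7 (4.84 ± 0.41, adjusted p 2e-06 by limma). Bhmt2 was at 0.37 and 0.44 at day 1, 3.28 and 0.87 at day 3, 10.1 and 23.8 at day 5, and 12.2 and 28.0 at day 7 (3.80 ± 0.57, adjusted p 0.000533 by limma). In each the day 5 and day 7 libraries overlapped, so the RNA was at its day 7 level while the region was not yet in the control list.

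Apba2, an adaptor of neuronal synapses, rose from 3.03 and 0 TPM to 22.2 and 46.9 with a region in both knockdown lists across a start inside the gene. Celf3, an RNA-binding protein gene of neurons, was listed at 0 on day 1 and reached 4.37 and 18.5 TPM by day 7 (3.36 ± 0.72, adjusted p 0.00885 by limma), and its region was in neither knockdown list. Of the neural markers, 6 of 10 had a region, and 2 of the 6, Sox1 among them, were called higher at day 7. The summed level of the neural list was 176.3 to 203.4 TPM at day 1 and 138.5 to 150.1 at day 7. Lmo4, a LIM-domain cofactor, and Maff, a small basic leucine zipper factor, were the genes that fell. Lmo4 went from 184.1 and 191.7 TPM at day 1 to 49.1 and 49.3 at day 7 (-1.91 ± 0.30, adjusted p 0.000789 by limma).

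The genes with the most regions were long ones. Auts2, linked to neural development, had 12 regions, of which 2 were in both knockdown lists and 7 in neither. Its level was 7.81 and 4.28 TPM at day 1 and 17.8 and 8.40 at day 7, with both day 7 libraries above both of day 1, and it was not called (adjusted p 0.443 by limma). Msi2, an RNA-binding protein of stem and progenitor cells, had 11, and rose from 7.76 and 18.2 to 61.0 and 40.3 TPM (1.96 ± 0.49, adjusted p 0.0235 by limma). That call was lost without day 1 replicate 1 (adjusted p 0.251 by limma) and without day 7 replicates 1 (0.160) or 2 (0.0619). Arhgap26 had 10, Snd1, Srgap1 and Zbtb7c 9 each, Ntn1 and Shroom3 8 each, and Celsr1 and Pakap 7 each. In Snd1, 5 of the 9 were in both knockdown lists. Ntn1, the guidance cue netrin-1, rose from 15.2 and 12.2 TPM to 250.3 and 135.1 (3.67 ± 0.31, adjusted p 1.94e-06 by limma), and Celsr1 and Zbtb7c rose too. The other 6 of these genes, Auts2 among them, were not called.

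The largest rises near a region were in Sez6, a neuronal membrane protein gene, and Nkd1, an inhibitor of WNT signalling. Sez6 was listed at 0 on day 1 and reached 179.9 and 103.4 TPM by day 7 (7.10 ± 0.50 in log2(TPM + 1), adjusted p 4.3e-07 by limma), with 0.96 and 0.18 in ES cells. Nkd1 rose from 1.31 and 0.79 TPM to 204.1 and 237.1 (6.76 ± 0.38, adjusted p 4e-08 by limma), with 2.15 and 1.49 in ES cells. These genes were thus high at day 7 and low in ES cells. The other largest rises were Ifi27l2a, Cd74, Srgn, Oasl2, Epcam and Alpl. All 6 listed interferon-stimulated genes with a region rose, as did 23 of the 28 in the list. Oasl2 was at 2.37 and 4.49 TPM at day 1, 571.9 and 409.2 at day 5 and 210.6 and 205.4 at day 7. Interferon-stimulated genes were thus up across the time course whether or not a region was near.

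Regions also lay near genes that fell. Dusp14, a phosphatase of MAP kinases, fell from 448.4 and 349.2 TPM to 32.3 and 33.8 (-3.54 ± 0.33, adjusted p 6.09e-06 by limma). At day 7 it was higher in both knockdown arms, at 114.8 and 219.9 in shYthdf2 (adjusted p 0.0146) and 139.7 and 159.7 in shYthdf3 (adjusted p 0.00944). Arhgdib, a regulator of small GTPases, showed the same directions: it fell from 122.9 and 136.7 to 12.9 and 12.0 TPM and was at 32.8 and 66.9 in shYthdf2 and 61.3 and 70.0 in shYthdf3. The regions by Dusp14 and Arhgdib were in neither knockdown list. Both arms were compared with the same day 7 control libraries. Falls to those libraries also picked these genes, so the comparison between arms is not independent of that choice. Tll1, Ghr, Igf1, Snx7 and Cdc42ep3 were also among the largest falls. Without day 7 replicate 2 or day 1 replicate 1, the calls were lost for Tll1 (adjusted p 0.0751 and 0.0592 by limma) and Igf1 (0.121 and 0.124). Of 24 collagen and matrix genes 10 had a region, and 5 of these fell, where 14 of all 24 did. With the replicate block 8 of the 10 fell, adding Fbln2, Postn and Mmp2 (adjusted p 0.00154, 0.00968 and 0.0403 by limma). The block also called Col6a2 higher (adjusted p 0.00786 by limma). Vcan, a matrix proteoglycan, went from 118.4 and 113.5 to 21.4 and 15.8 TPM. Of 24 mesenchymal regulators 9 had a region, and Twist1 and Fosl1 fell, where 7 of all 24 did. Falls in these lists were thus not particular to genes with a region.

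The remaining lists were sparse. No keratinocyte marker had a region, while trophoblast (Elf5) and primitive endoderm (Gata4) markers had 1 each, and macrophage (C1qa and C1qb) and endothelial (Pecam1 and Erg) markers 2 each. None of the 5 that were tested was called between day 1 and day 7. The summed macrophage list was 23.4 to 57.9 TPM at day 1 and 7.22 to 21.1 at day 7, and the endothelial list 51.3 to 51.7 and 43.1 to 46.9. Of 6 naive or primed state genes with a region (Pou3f1, Lefty2, Foxd3, Stat3, Socs3 and Lifr), none was called.

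Few genes near regions differed between arms at day 7. In shYthdf2, 4 of 4119 were higher and 2 lower than in shLuc, where 0.0798% and 0.0516% of all genes were. In shYthdf3, 14 were higher and 12 lower, where 0.352% and 0.221% were. With the replicate block the counts were 17 and 7 for shYthdf2, where 0.211% and 0.131% of all genes were called, and 51 and 29 for shYthdf3, where 1.02% and 0.587% were. In shYthdf2, fewer nearby genes were called on leaving out any single library of the comparison. The median log2 difference near regions was then -0.12 without shYthdf2 replicate 1 and 0.15 without shYthdf2 replicate 2. Over all genes those fits gave -0.13 and 0.08. For shYthdf3, too, the calls near regions fell on leaving out any single library of the comparison. Calls over all genes in the fits without a library were not compared in either arm. Of 2873 genes whose regions were all missing from the shYthdf3 day 7 list, 7 were higher and 11 lower in shYthdf3, with a median log2 difference of 0.02. Of 827 whose regions were all in it, 5 were higher and 1 lower, with a median of 0.07. The hairpin targets themselves did not overlap at day 7: Ythdf2 was at 56.3 and 34.3 TPM in shLuc and 22.5 and 25.1 in shYthdf2, and Ythdf3 at 41.1 and 21.2 in shLuc and 20.6 and 12.3 in shYthdf3. Neither was called at day 7 (adjusted p 1.0 and 0.728 by limma).

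ES cells and MEFs gave a readout from other cultures. Of 3650 nearby genes tested, 1152 were higher in ES cells (31.6%) and 1483 lower (40.6%), where 30.0% of all genes were higher and 32.9% lower. The median log2 difference was -0.14 near regions and 0 over all genes. The difference between genes near regions and all genes was not tested. Genes with a region within 1 kb of the start were higher in 133 of 340 cases and lower in 126, with a median of 0.13. Scaling by median ratios shifted the median of all genes by 0.102. Under it, 1311 nearby genes were higher (35.99%) and 1319 lower (36.21%), where 34.5% and 28.6% of all genes were, and the median near regions was 0.02. Of the stem cell network and epithelial genes with a region, 11 of 11 and 13 of 13 were higher in ES cells, while 10 of 10 matrix genes and 9 of 9 mesenchymal regulators were lower. In the whole lists, with or without a region, these were 37 of 37, 26 of 27, 23 of 24 and 22 of 23. The directions were thus those of the lists and tell nothing particular of the regions.

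Libraries numbered 1 and 2 differed in the time course: mitochondrial transcripts took 5.22 and 5.90% of TPM in the number 1 libraries of days 1 and 7 in shLuc, and 8.73 and 8.00% in the number 2 libraries, so this moved with replicate and not with day. The depth of the RNA libraries is unknown, since TPM carries no read totals. The p-values rest on the spread between libraries of the same group, pooled over all groups of the fit. The labels do not tie the 2 libraries of a group to separate cultures.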

How the data were processed

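ATAC-seq and TEAD2 ChIP-seq peaks were deposited by the authors as lists of positions without scores, and RNA levels as TPM in 1 table. Bowtie2, SAMtools, MACS2, RSEM and deepTools and the build mm10 are named in the submitters' processing notes, with no version or role. The 24 columns of a spike-in table were not matched to samples and were not used. Peaks counted as shared when they had at least 1 base in common. Gene positions, promoter windows and sequences came from RefSeq tables of GRCm38.p6, and 36650 of 50692 genes were placed.

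RNA was tested on log2(TPM + 1) with limma 3.58.1 (R 4.3.3, trended prior) over genes at 1 TPM or more in at least 2 libraries, with Benjamini-Hochberg adjustment over all genes tested and a threshold of 0.05. The 12 time course groups shared 1 fit, and the 9 cell line groups another. The fit was tested on simulated data. Same-numbered time course libraries deviated together (correlation 0.276 to 0.497). The main fit had no term for replicate number, so its p-values ignore this pairing. Values from a fit with replicate number as a block are given where they changed a call of a gene named here or a count. In the cell lines the correlations were -0.127 to 0.0740.

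Genes were named by rule: stem cell network and epithelial genes with a region, the 10 genes with the most regions, the 8 largest rises and falls from day 1 and the 4 from day 5. Genes at promoters, matrix genes and other list genes were named after their values were seen. Members and lists were chosen with earlier results of these data known. A sequence rule that needed a genome gave none. Some items are not reported here.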

Additional observations from a re-analysis of the deposited data

How the results depend on the processing

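Requiring 50% of the day 7 peak to be shared gave 7933 regions and moved the shares in shYthdf2 day 7 to 57.7%, in shYthdf3 day 7 to 26.8%, in an earlier knockdown list to 47.1% and near a start to 10.3%. Counting earlier peaks within 500 bases as shared moved the share near a start to 7.23%. Using peaks of at least 300 bases gave 1372 regions, with 51.8% in shYthdf2, 12.4% in shYthdf3, 37.2% in an earlier knockdown list, 0.510% at TEAD2 and 15.1% near a start.

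Calls near regions numbered 462 from day 1 to day 7, 726 with the replicate block, 753 within 50 kb and 214 to 271 on leaving out a library. From day 5 the 7 calls became 4 at a pseudocount of 0.1, 12 with the block and 0 to 3 without a library. The 6 calls of shYthdf2 became 24 with the block, 11 within 50 kb, 3 for nearest genes and 0 to 3 without a library. The 26 calls of shYthdf3 became 80, 49, 15 and 2 to 11. The 2635 calls between ES cells and MEFs became 5114 within 50 kb. Using regions in both knockdown lists, an alternative chosen after seeing the data, left 115, 1, 2, 5 and 619 calls in the 5 comparisons. In windows with 150 or more bases in a region, also chosen afterwards, 6 of 13 motif shares left the interval.

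Of 871 alternatives for 53 named genes, 814 kept direction and call, 47 lost the call (42 on leaving out a library), 3 gained it and 7 reversed. On leaving out a library, the reversals from day 1 to day 7 were in Arhgap26 (range -0.10 to 1.59, negative without day 7 replicate 1), Pakap (0 to 0.85, at 0 without day 7 replicate 2) and Klf4 (-0.75 to 0.40, positive without day 7 replicate 2 or day 1 replicate 1). Between ES cells and MEFs, Srgn reversed (-0.97 to 0.26, positive without replicate 2 of either), as did Dusp14 under median-ratio scaling (0.0741). The cause was not tested. Motifs in windows of the regions themselves were not run.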
